A study of Mus musculus with 6 samples.

Results

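The transcripts of 55 genes of the DNA damage and p53 response were followed in sorted kidney cells of mice with and without a conditional deletion of *Trf1* (gene symbol *Terf1*), which encodes a subunit of the shelterin complex at telomeres. The genes were chosen by name as sensors of DNA damage, repair factors, and p53 and its targets. Of these, 49 had a row among the 12125 genes listed, including *H2afx* under its newer symbol *H2ax*, and *Gadd45b*, *Bbc3*, *Brca1*, *Blm*, *Fancd2* and *Lig1* had none and were not analysed here. The 49 genes comprised p53 and 3 of its regulators, 9 checkpoint kinases and damage sensors, and 13 genes grouped as p53 targets. Of the repair factors, 9 were of nucleotide excision repair, 2 of homologous recombination and its helicases, 5 of end joining and 4 of single-strand break repair. The last 3 were the subunits of replication protein A. The comparison asked how these transcripts differed between 3 libraries from Trf1+/+ and 3 from Trf1flox/flox mice. Both groups carried Col1a2-CreERT2, a tamoxifen-activated Cre recombinase under the promoter of the collagen gene *Col1a2*, and a reporter allele in which Cre removes a stop cassette and switches on the Katushka fluorescent protein (KFP). Male and female mice of both genotypes were 6 to 8 weeks old at the first dose, and all received tamoxifen into the peritoneum, 3 injections weekly over 8 weeks. Each library came from 500 cells sorted with the integrin CD29 and KFP, and whether the sequenced cells carried both markers is not given in the sources used here. Replicates are numbered 1 to 3 within each genotype in the order of deposit, and the numbers pair no libraries. The study states 3 mice per group, but the labels do not tie a library to a mouse, so the p-values measure only the spread between these libraries.

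In the DNA damage response, the kinases ATM and ATR sense double-strand breaks and stretches of single-stranded DNA and activate the effector kinases CHK2 and CHK1. One of their substrates is the transcription factor p53, which is held at a low level by MDM2 and MDM4, is controlled to a large extent at the level of the protein, and induces genes of cell cycle arrest, repair and apoptosis. Shelterin keeps chromosome ends from being read as breaks, and loss of TRF1 is known to activate this response at telomeres.

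Among the members, *Xrcc1*, the scaffold of single-strand break repair, was nearly absent from the 3 Trf1+/+ libraries and present in the 3 Trf1flox/flox libraries. *Trp53*, which encodes p53, and *Gadd45a*, a p53 target in growth arrest, were lower in every Trf1flox/flox library than in any Trf1+/+ library. *Cdkn1a*, which encodes the cell cycle inhibitor p21, was at 0 in 2 Trf1+/+ libraries and present in the other 4 libraries. *Xrcc1* entered the test only through its level in Trf1flox/flox. Groups that did not overlap were no more frequent among the tested members, at 3 of 39 (7.69%), than among all tested genes, at 8.68%. None of these differences passed the adjusted threshold of limma. In these pools of cells, fewer cells of a type and less RNA per cell cannot be told apart.

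The targeted gene was read first. *Terf1* had 0.891, 253 and 235 normalized counts in Trf1+/+ replicates 1, 2 and 3 and 110.0, 7.65 and 12.4 in Trf1flox/flox replicates 1, 2 and 3, so the library labelled Trf1+/+ replicate 1, with 1 read, went against its label. The library labelled Trf1flox/flox replicate 1, with 128 reads, held more *Terf1* than the other Trf1flox/flox libraries and less than Trf1+/+ replicates 2 and 3. Between the genotypes, limma put *Terf1* at -1.04 on the log2 scale, smaller in size than its standard error of 2.63. In Trf1+/+ replicate 1, 43.8% of all listed genes held 3 reads or fewer, and in Trf1flox/flox replicate 1 the share was 17.3%. Whether either library was mislabelled was not tested. Groups were kept as labelled, and values without either library are given with the results. The listed genes held 10263382 to 12248797 reads per library, and 1 read was worth 0.689 to 1.09 normalized counts. The floor was set at 3 reads per gene and library, and since the reads were amplified by PCR and carry no molecular identifiers, this floor covers counting error only. The share of the 49 genes at the floor was 49.0% in the library labelled Trf1+/+ replicate 1, 30.6% in Trf1flox/flox replicate 2, and 10.2% to 22.4% in the other 4 libraries. Over all listed genes the same shares were 43.8%, 29.8%, and 8.37% to 20.0%. The labels call the cells fibroblasts, but of 10 fibroblast markers only *Col1a2* and *Dcn* had a row. *Col1a2* was at 1.78 normalized counts or fewer in every library, and *Dcn* ran from 0 to 97.3. All 10 markers of the proximal tubule, with sums of 7118 to 49193 normalized counts, and all 6 of the loop and distal tubule, with sums of 57909 to 149720, were listed. Of the others, 6 of 6 collecting duct, 4 of 4 erythroid, 4 of 8 leukocyte, 2 of 7 endothelial and 0 of 5 podocyte markers had a row. Erythroid sums ran from 238 to 10432 normalized counts in Trf1+/+ and from 121 to 52110 in Trf1flox/flox. Collecting duct sums ran from 1129 to 3887 in Trf1+/+ and from 887 to 20012 in Trf1flox/flox. The part of these cell types in the results that follow was not tested.

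**Figure D1:**
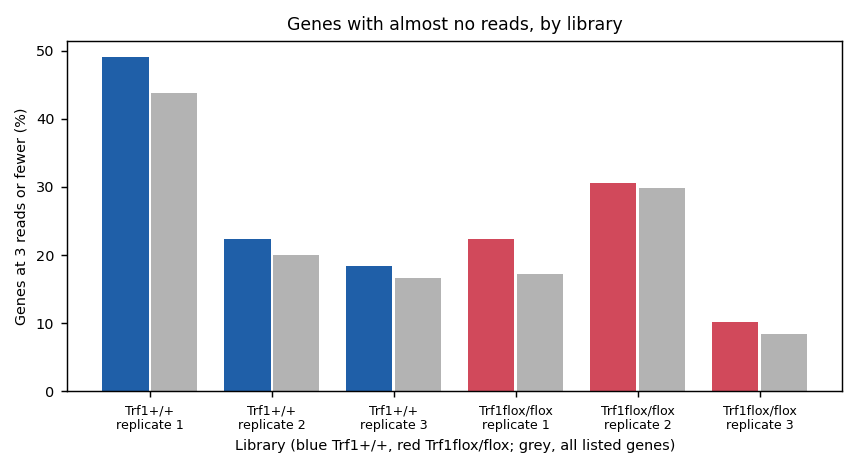
Percentage of genes at 3 reads or fewer in each of the 6 libraries, for the 49 members with a row (coloured bars, blue for Trf1+/+ and red for Trf1flox/flox) and for all 12125 listed genes (grey bars). The members sit above the grey bar in all 6 libraries, and both bars are highest in the library labelled Trf1+/+ replicate 1, at 49.0% and 43.8%.

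The members were patchily detected. *Mdm2*, *Mdm4*, *Atm*, *Atr*, *Nbn*, *Ccng1*, *Gadd45a*, *Gadd45g*, *Sesn3*, *Ei24*, *Ddb1*, *Xpc*, *Wrn*, *Xrcc5*, *Lig3* and *Rpa1* were above 3 reads in all 6 libraries, which is 16 of 49 (32.7%) beside 41.2% of all listed genes. At the other end, *Trp53inp1* and *Rpa2* were above 3 reads in 1 library only. Within a genotype, 21 of the 49 (42.9%) were at 3 reads or fewer in one library and at 100 normalized counts or more in another, beside 38.4% of all listed genes. The pooled standard deviation within a genotype had a median of 2.71 on the log2 scale over the tested members and 2.17 over all tested genes. The fold changes that follow are read against that spread.

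**Figure D2:**
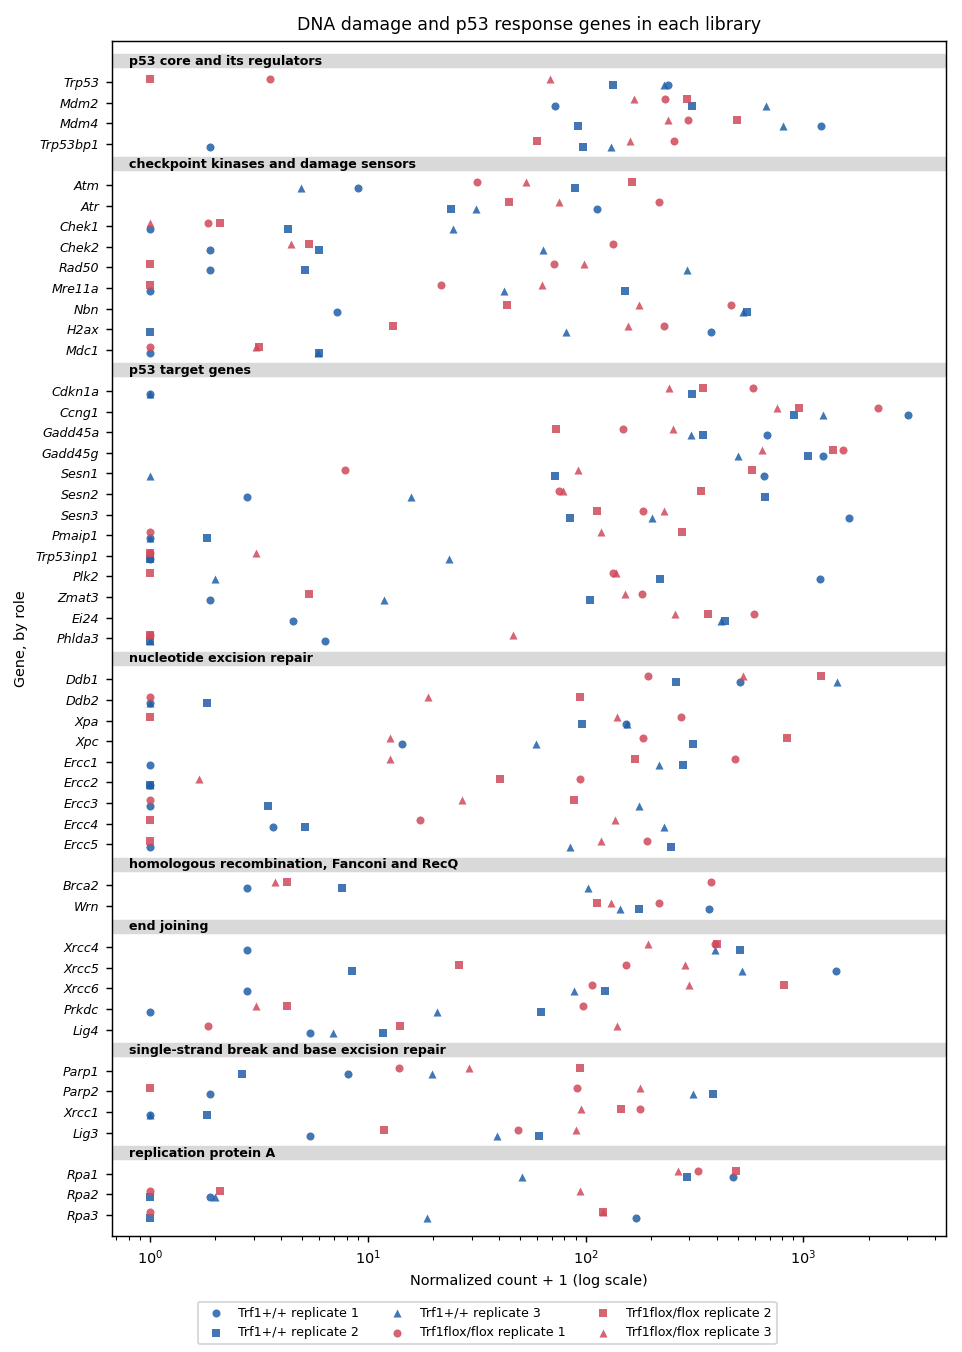
Normalized count plus 1 (log scale) of each of the 49 members with a row, by role, in Trf1+/+ libraries (blue) and Trf1flox/flox libraries (red), with circles, squares and triangles for replicates 1, 2 and 3. *Xrcc1* separates to the right in red, *Trp53* and *Gadd45a* to the left, and most other genes have both colours at both ends of their range.

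The difference between the genotypes was tested with limma on log2(normalized count + 1), over the 9966 genes that reached 10 normalized counts in 3 or more libraries. Of the members, 39 passed this filter, and *Chek1*, *Chek2*, *Mdc1*, *Pmaip1*, *Trp53inp1*, *Phlda3*, *Ddb2*, *Ercc2*, *Brca2* and *Rpa2* did not. *Xrcc1* passed it only through the Trf1flox/flox libraries and so had to differ. At an adjusted p under 0.05, limma called 0 of the 39 members and 0% of all tested genes. At an unadjusted p under 0.05 it marked 2 members, *Xrcc1* and *Cdkn1a*, beside 3.13% of all tested genes. On the reads recovered from the normalized counts, the quasi-likelihood test of edgeR called 0 members and 0 genes in all, with 1 member (*Xrcc1*) and 196 genes at an unadjusted p under 0.05. DESeq2 called 1 member, again *Xrcc1*, beside 0.582% of all tested genes. Since the filter fixed the separation of *Xrcc1*, nothing is read from its calls. The fitted value was higher in Trf1flox/flox for 24 of the 39 (61.5%), and 55.9% of all tested genes lay on that side. The median log2 fold change was 0.66 over the 39 and 0.20 over all tested genes. With DESeq2 the median was -0.08 over the 39 and -0.05 over all tested genes, and with edgeR it was -0.01 and -0.04. Both of these tools put 19 of the 39 on the higher side. Without the library labelled Trf1+/+ replicate 1, limma put 20 of the 39 there, with a median of 0.15 over the 39 and -0.03 over all tested genes. Without the library labelled Trf1flox/flox replicate 1, it put 22 there, with medians of 0.40 and 0.17. The libraries of the 2 genotypes did not overlap for 3 of the 39 members (7.69%), *Trp53*, *Gadd45a* and *Xrcc1*, the last by way of the filter, beside 8.68% of all tested genes, which is near the background. With 3 libraries against 3, an exact two-sided permutation test of a single gene cannot go below p = 0.1.

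**Figure D3:**
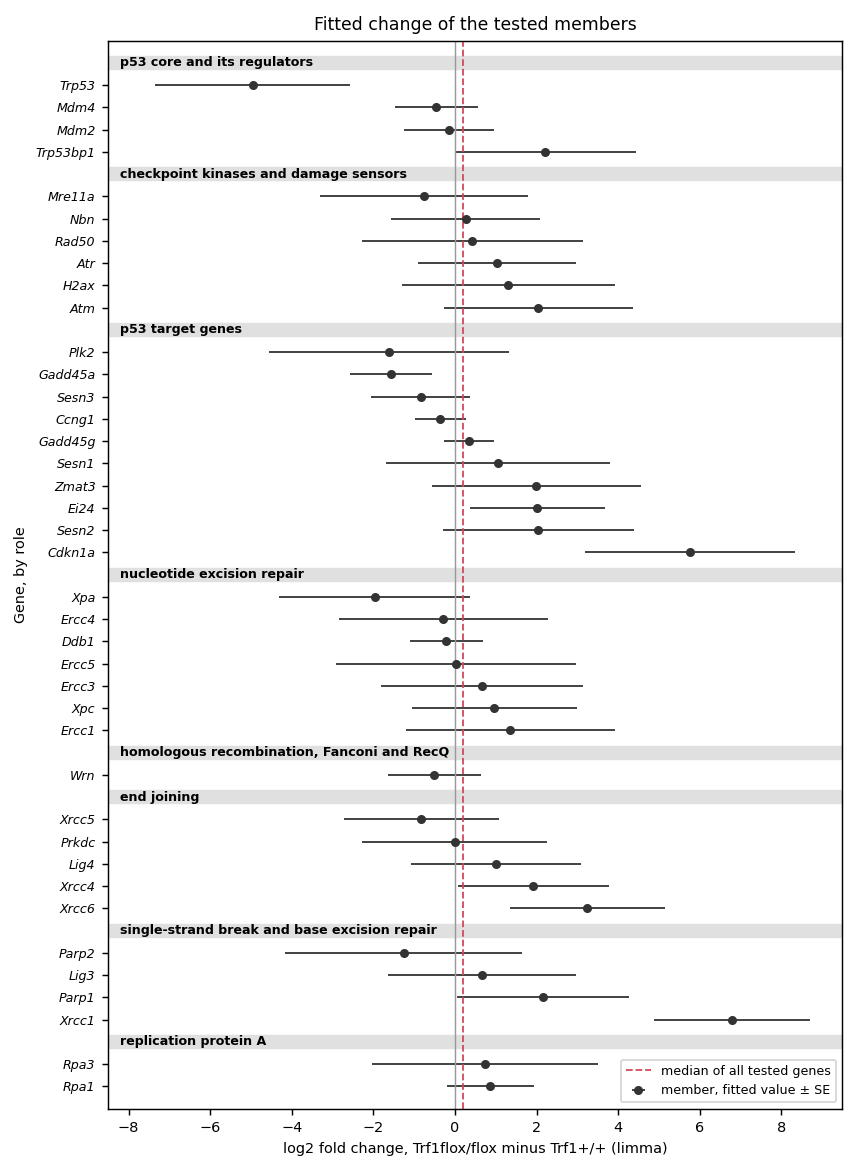
Fitted log2 fold change (Trf1flox/flox minus Trf1+/+, limma) of the 39 tested members with bars of 1 standard error, by role, with the median of all tested genes at 0.20 as a dashed line. The values run from -4.96 for *Trp53* to 6.79 for *Xrcc1*, and most bars cross 0.

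Since p53 binds DNA as a tetramer on pairs of half-sites of 10 letters, the RefSeq promoter windows (GRCm38.p6, 250 bases before to 50 after a gene's start) were searched for an exact p53 half-site, whose pattern reads the same on both strands. Windows were found for 38 of the 49 members. A half-site was present in 2 of 4 windowed genes of the p53 core, *Trp53* and *Mdm2*, and in 5 of 10 targets, namely *Cdkn1a*, *Ccng1*, *Gadd45a*, *Ei24* and *Sesn1*, and in none of the other members with a window. Over all 32851 windows, 8.36% held one. That share counts windows, whereas the members are counted as genes, and the 38 members had 42 windows. The targets were grouped as such beforehand, so a larger share among them is no result. The stretches around these matches are shown because they belong to *Trp53*, *Gadd45a* and *Cdkn1a*, whose values the comparison turns on, and to other members described beside them. Capitals mark the half-sites.
*Trp53*: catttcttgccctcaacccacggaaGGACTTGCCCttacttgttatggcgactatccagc
*Mdm2*: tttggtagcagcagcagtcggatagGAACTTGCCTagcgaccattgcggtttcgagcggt
*Cdkn1a*: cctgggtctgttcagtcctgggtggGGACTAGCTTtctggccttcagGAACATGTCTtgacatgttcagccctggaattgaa
*Ccng1*: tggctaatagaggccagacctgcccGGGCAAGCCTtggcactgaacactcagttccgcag
*Gadd45a*: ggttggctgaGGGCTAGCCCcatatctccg
*Sesn1*: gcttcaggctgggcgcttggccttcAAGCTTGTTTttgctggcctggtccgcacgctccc
*Ei24*: cgtgcggcccGGGCATGCCC
The stretch of *Trp53* lies upstream of its first exon at chr11:69580259-69580318, plus strand, with the half-site starting 75 bases before the RefSeq start. That of *Mdm2*, upstream of the gene at chr10:117710910-117710969, minus strand, starts its half-site 186 bases before the start. The *Cdkn1a* stretch at chr17:29090881-29090962, plus strand is upstream of the gene and holds 2 half-sites whose first letters are 22 bases apart. A pair of exact half-sites with a gap of at most 13 bases occurred in 0.0731% of all windows. Letters that depart from the pattern are not marked, so a pair that includes an inexact half-site is missed. The stretch of *Ccng1* lies upstream of the gene at chr11:40755437-40755496, minus strand. Those of *Gadd45a* (chr6:67037428-67037457, minus strand) and *Ei24* (chr9:36797335-36797354, minus strand) fall in an exon in the GENCODE annotation, and that of *Sesn1* (chr10:41887241-41887300, plus strand) falls in an intron of its longer transcripts. A match describes the letters only, and no binding was measured.

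*Trp53* (ENSMUSG00000059552, chr11:69580359-69591873 on the plus strand) had 238, 133 and 229 normalized counts in Trf1+/+ replicates 1, 2 and 3. It had 2.58, 0 and 67.5 in Trf1flox/flox replicates 1, 2 and 3. All 3 Trf1flox/flox libraries lay below the lowest Trf1+/+ library, and 2 of them were at 3 reads or fewer. The means were 199.7 ± 58.3 (SD, n = 3) in the Trf1+/+ libraries and 23.4 ± 38.3 (SD, n = 3) in the Trf1flox/flox libraries, and the log2 fold change was -4.96 (standard error 2.39, adjusted p = 0.97 from limma). It was -2.92 with edgeR and -3.07 with DESeq2, and leaving out 1 library at a time gave -6.68 to -3.63. *Mdm2*, the ubiquitin ligase that turns p53 over and is itself a p53 target, had 71.3, 308 and 672 normalized counts across Trf1+/+ and 230.3, 291 and 165 in Trf1flox/flox. The Trf1flox/flox libraries lay inside the range of the Trf1+/+ libraries, with a log2 fold change of -0.14 (standard error 1.10, adjusted p = 0.994 from limma). *Mdm4*, the related inhibitor of p53, had 1207, 91.1 and 807 in Trf1+/+ and 293, 495 and 237 in Trf1flox/flox, again inside the Trf1+/+ range, and its log2 fold change was -0.46 (standard error 1.02, adjusted p = 0.985 from limma). *Trp53bp1* encodes 53BP1, which gathers at double-strand breaks and uncapped telomeres. Its normalized counts were 0.891, 96.1 and 130.1 in Trf1+/+ and 254, 59.0 and 159 in Trf1flox/flox. The groups overlapped, with 1 read in the library labelled Trf1+/+ replicate 1, and the log2 fold change was 2.22 (standard error 2.21, adjusted p = 0.97 from limma). Its exons share 2130 bases with *Tubgcp4* on the opposite strand, and since the libraries do not keep strand, reads of the pair cannot be told apart there. Of these 4 genes, *Trp53bp1* alone had a positive log2 fold change.

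The checkpoint kinases had few reads in most libraries. *Atm* had 8.02, 88.7 and 3.94 normalized counts in Trf1+/+ replicates 1, 2 and 3 and 30.9, 163 and 52.4 in Trf1flox/flox replicates 1, 2 and 3. The highest library was in Trf1flox/flox and the lowest pair in Trf1+/+, but the groups overlapped and the log2 fold change, the farthest from 0 of the tested sensors, was 2.04 (standard error 2.32, adjusted p = 0.97 from limma). *Atr* had 111, 23.2 and 30.5 in Trf1+/+ and 216, 43.7 and 74.4 in Trf1flox/flox. Its groups overlapped as well, with a log2 fold change of 1.03 (standard error 1.93, adjusted p = 0.983 from limma). *Chek1*, which encodes CHK1, was not tested and had 0, 3.31 and 23.6 in Trf1+/+ and 0.859, 1.09 and 0 in Trf1flox/flox. Only Trf1+/+ replicates 2 and 3 were above the floor. *Chek2*, which encodes CHK2, had 0.891, 4.97 and 63.1 in Trf1+/+ and 132, 4.37 and 3.45 in Trf1flox/flox, with 1 library in each group above 10. Among the break sensors, the histone gene *H2ax*, whose protein is phosphorylated around breaks, ranged from 0 to 374 in Trf1+/+ and from 12.0 to 228 in Trf1flox/flox. *Mdc1*, which binds that phosphorylated histone, stayed at 4.97 normalized counts or fewer in all 6 libraries. Of the 6 tested sensors and kinases, 5 had a positive and 1 a negative log2 fold change, from -0.75 to 2.04 with a median of 0.73, and 0 had an unadjusted p under 0.05.

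The genes grouped here by name as p53 targets were mixed in direction, and the group is no measure of p53 activity. Of the 10 tested, 6 had a positive and 4 a negative log2 fold change, with a median of 0.70 and a range from -1.61 to 5.76, and only *Cdkn1a* had an unadjusted p under 0.05. Some p53-induced genes, such as *Mdm2* and *Ddb2*, were counted under other roles. *Cdkn1a* (ENSMUSG00000023067, chr17:29090976-29100727 on the plus strand), the inhibitor of cyclin-dependent kinases whose window held 2 exact half-sites, had 0, 306 and 0 normalized counts in Trf1+/+ replicates 1, 2 and 3. It had 588, 346 and 239.8 in Trf1flox/flox replicates 1, 2 and 3. The groups overlapped, since Trf1+/+ replicate 2 lay between the Trf1flox/flox libraries while the other two Trf1+/+ libraries had no read. Its log2 fold change of 5.76 (standard error 2.57, adjusted p = 0.97 from limma) shrank to 1.84 with edgeR and 1.94 with DESeq2, and was 8.52 without Trf1+/+ replicate 2. *Gadd45a* (ENSMUSG00000036390, chr6:67035096-67037457 on the minus strand), which binds PCNA and p21, had 679, 344 and 303 in Trf1+/+ and 147, 72.1 and 251 in Trf1flox/flox. All Trf1flox/flox libraries were below all Trf1+/+ libraries, the nearest pair being 251 and 303. The means were 442 ± 206 (SD, n = 3) in the Trf1+/+ libraries and 157 ± 89.7 (SD, n = 3) in the Trf1flox/flox libraries, and the log2 fold change was -1.57 (standard error 1.00, adjusted p = 0.97 from limma). Its exons share 337 bases with the antisense gene *E230016M11Rik*, which cannot be told apart without strand. The summed level of the 12 listed immediate early and dissociation genes of 16 was also lower in every Trf1flox/flox library, at 887 to 1875 normalized counts against 1953 to 3451 in Trf1+/+, and its part in the result was not tested. No single gene of the 12 separated the groups, and *Dusp1* was highest in Trf1flox/flox replicate 1, at 467 against 8.02 to 217 in Trf1+/+. The sum includes *Btg2*, a p53 target of the wider list.

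The relative *Gadd45g* and the cyclin gene *Ccng1* were abundant in every library. *Gadd45g* had 1235, 1044 and 502 normalized counts across Trf1+/+ and 1526, 1365 and 642 in Trf1flox/flox. The groups overlapped, with a log2 fold change of 0.35 (standard error 0.62, adjusted p = 0.983 from limma). *Ccng1*, which encodes cyclin G1 and is induced by p53, had 3036, 904 and 1224 in Trf1+/+ and 2192, 957 and 757 in Trf1flox/flox, and its log2 fold change was -0.36 (standard error 0.63, adjusted p = 0.983 from limma). For these 2 genes every library was above 500 normalized counts, and the difference between groups was smaller than its standard error. The sestrins, which restrain mTOR signalling under stress, each had 1 library far from the rest of its group. *Sesn1* had 659, 71.3 and 0 in Trf1+/+ and 6.87, 578 and 91.0 in Trf1flox/flox, with a log2 fold change of 1.05 (standard error 2.75, adjusted p = 0.987 from limma). *Sesn2* had 1.78, 665 and 14.8 in Trf1+/+ and 74.8, 337 and 77.9 in Trf1flox/flox, with a log2 fold change of 2.04 (standard error 2.34, adjusted p = 0.97 from limma). *Sesn3* had 1612, 83.7 and 200.0 in Trf1+/+ and 183, 111 and 229 in Trf1flox/flox, with a log2 fold change of -0.84 (standard error 1.22, adjusted p = 0.981 from limma). The highest library was in Trf1+/+ for all 3 sestrins, but it was replicate 1 for *Sesn1* and *Sesn3* and replicate 2 for *Sesn2*.

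The apoptosis gene *Pmaip1*, which encodes NOXA, was not tested and had 0, 0.829 and 0 normalized counts across Trf1+/+ and 0, 276 and 117 in Trf1flox/flox. It was present in 2 Trf1flox/flox libraries and at the floor in the other 4 libraries. With 1 read in Trf1+/+ against 423 in Trf1flox/flox, the ratio of reads, adjusted for the scaling, was 401 (95% exact interval 71.5 to 15866), an interval that covers counting error only and not the spread between libraries. *Zmat3*, an RNA-binding p53 target, had 0.891, 104 and 10.8 in Trf1+/+ and 180.4, 4.37 and 152 in Trf1flox/flox. The groups overlapped, with a log2 fold change of 1.99 (standard error 2.56, adjusted p = 0.972 from limma). *Phlda3*, an inhibitor of AKT, was above the floor in Trf1+/+ replicate 1 and Trf1flox/flox replicate 3, with 5.34, 0 and 0 in Trf1+/+ and 0, 0 and 45.5 in Trf1flox/flox. The others were mixed: *Plk2*, a polo-like kinase, ranged from 0.985 to 1193 in Trf1+/+ and from 0 to 136 in Trf1flox/flox, *Ei24*, a membrane protein of the endoplasmic reticulum, from 3.56 to 437 and from 258 to 592, and *Trp53inp1* was above 3 reads in Trf1+/+ replicate 3 alone, at 22.7.

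In nucleotide excision repair, which cuts out bulky lesions, damage is first bound by XPC or by the DDB1-DDB2 dimer. *Xpc* had 13.4, 309 and 58.1 normalized counts across Trf1+/+ and 182, 840.4 and 11.7 in Trf1flox/flox. Its highest library was Trf1flox/flox replicate 2. The lowest of each group, Trf1+/+ replicate 1 and Trf1flox/flox replicate 3, held 15 and 17 reads, so their order is not resolved. The log2 fold change was 0.97 (standard error 2.03, adjusted p = 0.985 from limma). *Ddb2*, the p53-induced subunit, was not tested and had 0, 0.829 and 0 in Trf1+/+ and 0, 92.9 and 17.9 in Trf1flox/flox, the same 2 libraries in which *Pmaip1* was present. The ratio of 111 reads in Trf1flox/flox to 1 in Trf1+/+, adjusted for the scaling, was 105 (95% exact interval 18.5 to 4191). This interval too covers counting error only and not the spread between libraries, since 85 of the 111 reads lay in Trf1flox/flox replicate 2. Its exons share 652 bases with *Acp2* on the opposite strand. *Xpa*, which holds the opened DNA for the nucleases, had 152, 95.3 and 155 in Trf1+/+ and 273, 0 and 139 in Trf1flox/flox. The log2 fold change of -1.97 (standard error 2.34, adjusted p = 0.97 from limma) turned on Trf1flox/flox replicate 2, where it was at 0, and was 0.57 without that library. *Ercc2*, the XPD helicase of TFIIH, was also left untested and had 0, 0 and 0 in Trf1+/+ and 93.7, 39.3 and 0.689 in Trf1flox/flox. Against a floor of 3 reads in each Trf1+/+ library its mean in Trf1flox/flox was at least 16.5-fold higher, but Trf1flox/flox replicate 3 held only 1 read, so the separation of the groups there rests on that read. Other annotated genes cover 1780 of its 4170 exonic bases, mostly *Gm26852* and *Klc3* on the opposite strand, and their reads cannot be told apart there. The remaining members overlapped between the groups: *Ddb1* at 193 to 1424 in all 6 libraries, and *Ercc1*, *Ercc3*, *Ercc4* and *Ercc5* between 0 and 482, each with at least 1 library at 3 reads or fewer in one or both groups. Of the 7 tested genes of this pathway, 4 had a positive and 3 a negative log2 fold change, with a median of 0.03.

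Homologous recombination and its helicases were represented by *Wrn* and *Brca2*. *Wrn*, the RecQ helicase that also unwinds telomeric DNA, had 367, 176 and 143 normalized counts across Trf1+/+ and 217, 111 and 130.2 in Trf1flox/flox. It was above 100 in every library, and its log2 fold change was -0.51 (standard error 1.14, adjusted p = 0.985 from limma). *Brca2*, a tumour suppressor of homologous recombination, was not tested and had 1.78, 6.63 and 101 in Trf1+/+ and 377, 3.28 and 2.76 in Trf1flox/flox, with 1 library of each group above 100.

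In end joining, Ku70 (*Xrcc6*) and Ku80 (*Xrcc5*) form a ring that slides onto broken ends, and DNA-PKcs (*Prkdc*), XRCC4 and ligase IV (*Lig4*) complete the join. *Xrcc6* had 1.78, 122 and 87.7 normalized counts across Trf1+/+ and 106, 816 and 296 in Trf1flox/flox. The 2 highest libraries were in Trf1flox/flox, but the groups overlapped, and the log2 fold change was 3.25 (standard error 1.90, adjusted p = 0.97 from limma). *Xrcc5* had 1414, 7.46 and 523 in Trf1+/+ and 152, 25.1 and 285 in Trf1flox/flox. Each of these partner genes was at its highest in a library where the other was at or next to its lowest: *Xrcc5* in Trf1+/+ replicate 1, with 2 reads of *Xrcc6*, and *Xrcc6* in Trf1flox/flox replicate 2. *Xrcc4* was at 1.78 in Trf1+/+ replicate 1 and at 192 to 512 in the other 5 libraries, whereas its partner *Lig4* was at 13.1 or fewer in 5 libraries and at 139 in Trf1flox/flox replicate 3. *Prkdc* ranged from 0 to 61.3 in Trf1+/+ and from 2.07 to 96.2 in Trf1flox/flox. Of the 5 end joining genes, 3 had a positive and 2 a negative log2 fold change, with a median of 1.01 and 0 at an unadjusted p under 0.05.

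Single-strand breaks are found by PARP1 and PARP2, and XRCC1 then brings ligase III (*Lig3*) and other enzymes to them. *Xrcc1* (ENSMUSG00000051768, chr7:24546289-24573440 on the plus strand) had 0, 0.829 and 0 normalized counts in Trf1+/+ replicates 1, 2 and 3. It had 177, 144 and 94.4 in Trf1flox/flox replicates 1, 2 and 3. The Trf1+/+ libraries held 1 read between them and the Trf1flox/flox libraries 475, and the ratio of reads, adjusted for the scaling, was 450.0 (95% exact interval 80.4 to 17812), for counting error only. The log2 fold change was 6.79 (standard error 1.91, adjusted p = 0.97 from limma). Its size depends on the pseudocount, with 7.60 at 0.5 and 3.81 at 10, and DESeq2 gave 8.76 and edgeR 8.41 on the reads. Because the gene entered the test through Trf1flox/flox alone, these values describe the libraries and no p-value is read from them. No exon of another annotated gene overlaps those of *Xrcc1*. The summed level of the 4 listed proliferation markers of 12 (*Pcna*, *Tyms*, *Mcm2* and *Top2a*) was also higher in every Trf1flox/flox library, at 702 to 921 normalized counts against 287 to 655, while *Mki67*, *Cdk1* and *Ccnb1* had no row, and its part in the result was not tested. Among the 4, *Pcna*, which is also a repair gene of the wider list, alone separated the groups, with 0 to 332 in Trf1+/+ and 395 to 629 in Trf1flox/flox. The other 3 genes of this pathway overlapped between the groups: *Lig3* had 4.45 to 60.5 in Trf1+/+ and 10.9 to 89.6 in Trf1flox/flox, *Parp1* 1.66 to 18.7 and 12.9 to 92.9, and *Parp2* 0.891 to 384 and 0 to 178. Of the 4, *Parp2* alone had a negative log2 fold change, -1.26. The exons of *Lig3* share 1826 bases with *Rffl* on the opposite strand.

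Replication protein A coats single-stranded DNA as a trimer and is the platform on which ATR is activated. *Rpa1*, its large subunit, had 475, 292 and 50.3 normalized counts across Trf1+/+ and 329, 492 and 266 in Trf1flox/flox, and its log2 fold change was 0.87 (standard error 1.07, adjusted p = 0.97 from limma). *Rpa3*, the small subunit, ranged from 0 to 169 in Trf1+/+ and from 0 to 119 in Trf1flox/flox. *Rpa2*, the middle subunit that ATR phosphorylates, was not tested and was at 1.09 or fewer in 5 libraries and at 93.0 in Trf1flox/flox replicate 3. Per kilobase of exon, the means over the 6 libraries were 56.9 for *Rpa1* and 62.4 for *Rpa3*, with ranges that overlapped, and 5.35 for *Rpa2*.

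**Figure D4:**
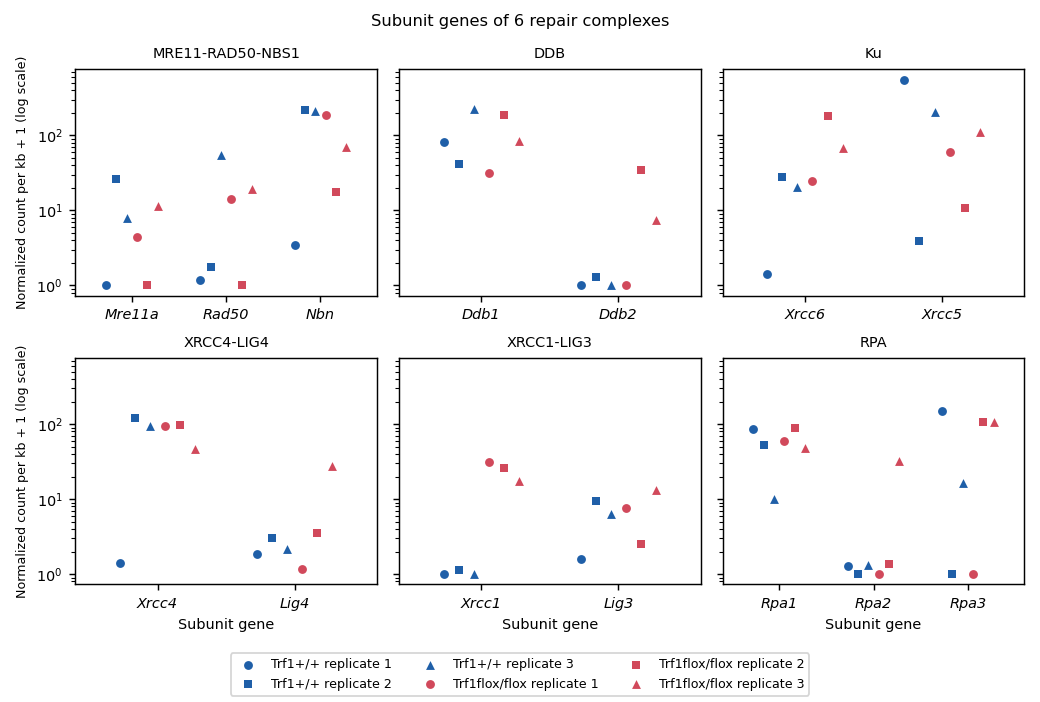
Normalized count per kilobase of exon plus 1 (log scale) of the subunit genes of 6 repair complexes in Trf1+/+ libraries (blue) and Trf1flox/flox libraries (red), with circles, squares and triangles for replicates 1, 2 and 3. *Xrcc1* is the subunit gene whose colours separate, and *Ddb2*, *Lig4* and *Rpa2* lie near the floor in most libraries while *Ddb1*, *Xrcc4* and *Rpa1* lie high in most.

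Levels between genes were compared per kilobase of exon, as the mean over all 6 libraries, which pools both genotypes. Exon length joins the exons of all annotated transcripts of a gene, 23629 bases for *Atr*. The order of genes therefore depends on how many exons are annotated as well. The highest mean was that of the growth arrest gene *Gadd45g*, whose normalized count per kilobase was 790.3 ± 325 (SD, n = 3) in the Trf1+/+ libraries and 1004 ± 401 (SD, n = 3) in the Trf1flox/flox libraries. *Ccng1* followed with 490.1 ± 327 (SD, n = 3) in the Trf1+/+ libraries and 371 ± 221 (SD, n = 3) in the Trf1flox/flox libraries, and *Gadd45a* with 250.4 ± 117 (SD, n = 3) in the Trf1+/+ libraries and 88.8 ± 50.9 (SD, n = 3) in the Trf1flox/flox libraries. Over the 6 libraries these 3 genes ran from 428 to 1301, 215 to 864 and 40.9 to 385, so each overlapped the next. *Xrcc5*, *Nbn*, *Ddb1* and *H2ax* came next, with means of 157, 116, 107 and 102 per kilobase and ranges over the 6 libraries that overlapped each other, so their order is not resolved. For *Trp53* and *Xrcc1*, whose groups do not overlap, a pooled mean describes neither genotype. *Trp53* had 49.4 ± 14.4 (SD, n = 3) in the Trf1+/+ libraries and 5.78 ± 9.46 (SD, n = 3) in the Trf1flox/flox libraries, per kilobase. *Xrcc1* had 0.0474 ± 0.0820 (SD, n = 3) in the Trf1+/+ libraries and 23.8 ± 7.13 (SD, n = 3) in the Trf1flox/flox libraries, on the same scale. The kinases *Atm*, *Atr* and *Chek1* had means of 5.59, 3.52 and 1.04 per kilobase, with ranges that overlapped, and *Mdc1* had the lowest mean of the 49, 0.318.

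A wider list of 190 genes of the same pathways, without the members, was read in the same fit. Of these, 143 had a row and 113 were tested. The log2 fold change was positive for 60 and negative for 53, with a median of 0.10, and limma called 0 at an adjusted p under 0.05 and marked 1 (*Rad1*) at an unadjusted p under 0.05. edgeR called 0 of them and DESeq2 called 1, *Rad1*. The groups did not overlap for 10 of the 113 (8.85%), which is near the 8.68% of all tested genes, and the examples that follow are read as descriptions. *Rad1*, a subunit of the 9-1-1 clamp that activates ATR, had 6.23, 6.63 and 12.8 normalized counts across Trf1+/+ and 485, 452 and 101 in Trf1flox/flox. All Trf1flox/flox libraries lay above all Trf1+/+ libraries, with a log2 fold change of 4.95 (standard error 2.04, adjusted p = 0.97 from limma) and an adjusted p of 0.00394 from DESeq2. The gene met the filter through the Trf1flox/flox libraries, since in Trf1+/+ only replicate 3 reached 10 normalized counts. As for *Xrcc1*, nothing is read from that call. *Fancl*, the ubiquitin ligase of the Fanconi complex, had 0, 0.829 and 45.3 in Trf1+/+ and 59.3, 358 and 88.9 in Trf1flox/flox. *Rfc2*, a clamp loader subunit, had 112, 186 and 231 in Trf1+/+ and 522, 1112 and 335 in Trf1flox/flox. In both genes all Trf1flox/flox libraries were again the higher ones, with log2 fold changes of 4.83 and 1.77 (adjusted p = 0.97 from limma for both). In the other direction, *Rchy1*, a ubiquitin ligase of p53, had 2183, 735 and 1086 in Trf1+/+ and 456, 450.2 and 637 in Trf1flox/flox. *Ube2b*, the RAD6 enzyme of DNA damage tolerance, had 2074, 1797 and 2037 in Trf1+/+ and 947, 1242 and 972 in Trf1flox/flox. Both separated by genotype, with log2 fold changes of -1.24 and -0.91, and adjusted p = 0.97 from limma for both. The antiproliferative p53 target *Btg2* had 354, 791 and 437 in Trf1+/+ and 516, 0 and 174 in Trf1flox/flox, which overlapped, with a log2 fold change of -3.47 (standard error 2.03, adjusted p = 0.97 from limma). The overlap of *Rchy1* exons with *Thap6* on the opposite strand is 680 bases.

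The 4 members named first were followed through each alternative. *Xrcc1* stayed between 3.81 and 8.76 on the log2 scale, the lowest with a pseudocount of 10. *Trp53* stayed between -6.68 and -2.92 and *Gadd45a* between -1.99 and -0.75. *Cdkn1a* ran from 1.84 with edgeR to 8.52 without Trf1+/+ replicate 2. Without the library labelled Trf1+/+ replicate 1, the values were 6.64 for *Xrcc1*, -4.81 for *Trp53*, -1.21 for *Gadd45a* and 4.39 for *Cdkn1a*. Without the library labelled Trf1flox/flox replicate 1, they were 6.59, -4.55, -1.61 and 5.42. For *Xrcc1*, *Trp53* and *Gadd45a*, whose groups do not overlap, leaving out libraries cannot turn the sign, so a kept sign is no measure of stability there.

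**Figure D5:**
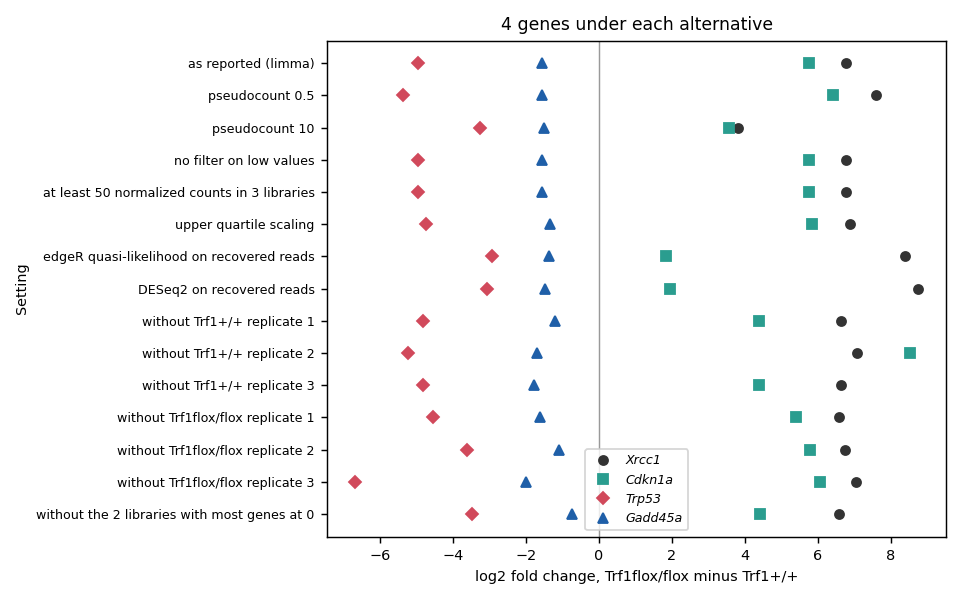
Log2 fold change (Trf1flox/flox minus Trf1+/+) of *Xrcc1* (circles), *Cdkn1a* (squares), *Trp53* (diamonds) and *Gadd45a* (triangles) as reported and under each of 14 alternatives. *Gadd45a* moves least, from -1.99 to -0.75, and *Cdkn1a* moves most, from 1.84 to 8.52.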

How the data were processed

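Kidney cells sorted with CD29 and KFP (500 per library) were copied into cDNA with oligo(dT) primers and a template switch, and the PCR-amplified libraries were sequenced without strand. The authors aligned the reads and counted them per gene, and their processing notes name TopHat2 2.0.10, Bowtie 1.0.0, SAMtools 0.1.19, HTSeq 0.6.1 and DESeq2. The deposited values are a signal of normalized counts, each library's reads divided by a single size factor. All values were whole multiples of 1 read (100%, within 0.1 of a read), so reads were recovered for the count tests. The study's methods give GRCm38 and the notes GRCm39, and the table gives symbols only, so coordinates and exon lengths are those of GENCODE vM21 on GRCm38 for the 11911 of 12125 symbols that matched. If the reads were counted on another annotation, lengths and overlaps may differ. The exons of 11 of the 49 members overlap those of another listed gene, all on the opposite strand, and not all of these overlaps are named above.

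Genes that reached 10 normalized counts in 3 or more libraries were tested with limma 3.58.1 (R 4.3.3, trended variance) on log2(normalized count + 1), genotype only, with Benjamini-Hochberg adjustment over all of them. On this scale a log2 fold change can fall short of that from the reads, as for *Xrcc1* (6.79 with limma, 8.41 with edgeR). It can also exceed it where single libraries are at 0, as for *Cdkn1a* (5.76 with limma, 1.84 with edgeR). edgeR 4.0.16 (TMM) and DESeq2 1.42.0 were run on the recovered reads, and the procedure was tested on simulated data. The simulation did not include the loss of genes from single libraries, so it does not show how the tests perform on data this patchy. Read ratios have 95% exact (Clopper-Pearson) intervals from scipy 1.17.1, which treat PCR copies as separate counts. They were computed only where one group held almost no reads and the other many, so they exclude equal levels by selection. Figures were drawn with matplotlib 3.10.9.

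All 6 values are given for members with an unadjusted limma p under 0.05 or groups that did not overlap, for a fixed list of p53 pathway genes, for the tested member farthest from 0 in each role, and for the 3 wider genes with the smallest p in each direction. Members and lists were chosen with earlier results of these data known.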

Additional observations from a re-analysis of the deposited data

How the results depend on the processing

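limma called 0 members and 0 genes under each of its alternatives, as did edgeR, whereas DESeq2 called 1 member (*Xrcc1*) and 58 genes. The number of members higher in Trf1flox/flox stayed within 1.5 times of 24 under all 14 alternatives, and the median log2 fold change moved by less than the spread of the library medians (SD 1.65). Both limits are wide and do not show stability. With edgeR and DESeq2 the number fell to 19 of 39, and the median fell from 0.66 to -0.01 and -0.08. Members whose groups did not overlap numbered 3 as reported and 5 to 9 of 39 when any 1 of the 6 libraries was left out, beside 15.2% to 24.4% of all tested genes. Without the 2 libraries with most genes at 0 there were 11, beside 29.4%, and fewer libraries overlap less by construction. Of the 20 members whose fold change was tracked, 11 changed sign under at least 1 alternative, and the cause was not tested. With edgeR and DESeq2, *Sesn1* was at -0.03 and -0.08, *Sesn2* at -0.62 and -0.49, and *Xpa* at 0.11 and 0.05. With upper quartile scaling, which moved the median of all tested genes from 0.20 to 0.38, *Mdm2* was at 0.07. Without the 2 libraries with most genes at 0, *Ccng1* was at 0.29, *Sesn2* at -0.41, *Sesn3* at 0.66, *Wrn* at 0.09, *Xpa* at 0.68 and *Xpc* at -1.49. With 1 library left out, values ran from -0.81 to 0.15 for *Ccng1*, -1.60 to 0.26 for *Mdm4* and -1.76 to 0.37 for *Sesn3* (positive without Trf1+/+ replicate 1). They ran from -1.03 to 0.58 for *Mdm2*, positive without Trf1+/+ replicate 2 (0.02), Trf1+/+ replicate 3 (0.58) or Trf1flox/flox replicate 3 (0.07). They ran from -0.04 to 0.74 for *Gadd45g* and -0.09 to 1.52 for *Rpa1* (negative without Trf1+/+ replicate 3), and from -1.54 to 3.14 for *Sesn1*, negative without Trf1+/+ replicate 3 (-1.54) or Trf1flox/flox replicate 2 (-0.43). For *Xpa* they ran from -3.48 to 0.57 (positive without Trf1flox/flox replicate 2), and for *Xpc* from -0.41 to 2.61, negative without Trf1+/+ replicate 1 (-0.11) or Trf1flox/flox replicate 2 (-0.41). The labels give no replicate numbers, so no pairing was tested. At 3 reads or fewer a gene is not distinguished from absence.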
